A study of Mus musculus with 20 samples.

Results

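The collagen genes of the mouse were followed in RNA from the medial prefrontal cortex. Members were chosen by their symbol, taking every gene whose name reads Col, a number, the letter a and a number in both comparison tables, which gave 44 of 20375 genes. The choice used no fold change or q-value, but the family was picked as a subject with earlier results of these data in view, and its values are therefore given as a description with the authors' own q-values. Cortex came from C57BL/6 mice with PBS or CDS injected into that region (the labels do not expand CDS). At postnatal day 47, 5 days after injection, the groups were PBS (n = 5) and CDS (n = 5), and at postnatal day 84, which the labels give as 12 weeks of age and 6 weeks after injection, they were again PBS (n = 5) and CDS (n = 5). Every animal had thus received an intracortical injection, and no group without one entered the comparisons. The series title describes a model of microglia depletion.

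Collagens are secreted or membrane-bound proteins in which 3 chains wind into a helix, and glycine recurs at regular intervals along the helical stretches. Fibrillar collagens build the fibres of connective tissue, and type IV collagen builds the network of basement membranes. In the brain the parenchyma holds little fibrous collagen, and most collagen lies in the basement membranes of blood vessels, in the meninges and around perivascular fibroblasts. FACIT collagens (fibril-associated collagens with interrupted triple helices) sit on fibre surfaces, beaded filament collagens form microfibrils, and membrane-spanning collagens are anchored in the plasma membrane of the cell that makes them.

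The label of the family was checked against the coding sequence. In the longest open reading frame of each member in GENCODE M21, runs of at least 5 Gly-X-Y triplets (a glycine followed by any 2 residues) were found in all 44 members. They took up from 8.12% of the protein, in the large FACIT Col12a1, to 85.6%, in Col9a3, with a median of 61.2%. The 11 fibrillar members held 2 to 3 runs each, and the longest run, 344 triplets, lay in Col3a1. Type IV chains were instead broken into 22 to 27 runs. Only 25.0% of Col15a1 and 28.6% of Col18a1 consisted of such runs. The single gene with a collagen-like start of its symbol and further letters, Col4a3bp, held 0 runs and was not a member; it encodes a ceramide transfer protein.

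The data consist of the authors' log2 ratio of CDS to PBS and their q-value per gene, 1 table for each time. The tables give no level and no value per sample, so that the overlap of the groups and the depth of the libraries are unknown. Standard errors below are implied ones, computed from each fold change and the p-value recovered from its q, and 95% intervals are normal intervals from them. A gene is called where q was under 0.05. Microglia markers were lower in CDS at 5 days, 6 of 6 called with a median log2 change of -1.54 in the authors' deposited table. At 12 weeks 0 of 6 were called in the authors' deposited table, where their median was -0.37. A p could be recovered for 2 of them at that time, under 0.05 in both, and is not known for the rest.

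At 5 days after injection, genes of all 7 collagen classes were higher in CDS, among them type IV chains, both multiplexins, Col3a1, Col7a1, Col13a1 and the common type VI chains. Of the members, 18 were higher in CDS in the authors' deposited table, 3 were lower and 23 were not called. Of all genes 2.75% were called higher, 3.18% lower and 5.92% in either direction, and 47.7% of the members were called in either direction. Because the family was picked with these values in view, the shares are given side by side and nothing is read from their difference. Of the 15454 protein-coding genes, the class to which all 44 members belong, 7.09% were called. The median log2 fold change of the members was 0.35 in the authors' deposited table, beside -0.02 over all genes and 0.00 over protein-coding genes. Unadjusted p-values under 0.05 belonged to 27 members and for 19.1% of all genes. In a bulk sample, a larger number of cells of a type and more RNA per cell cannot be told apart. The plot of all members shows the filled points, the called genes, by class.

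**Figure D1:**
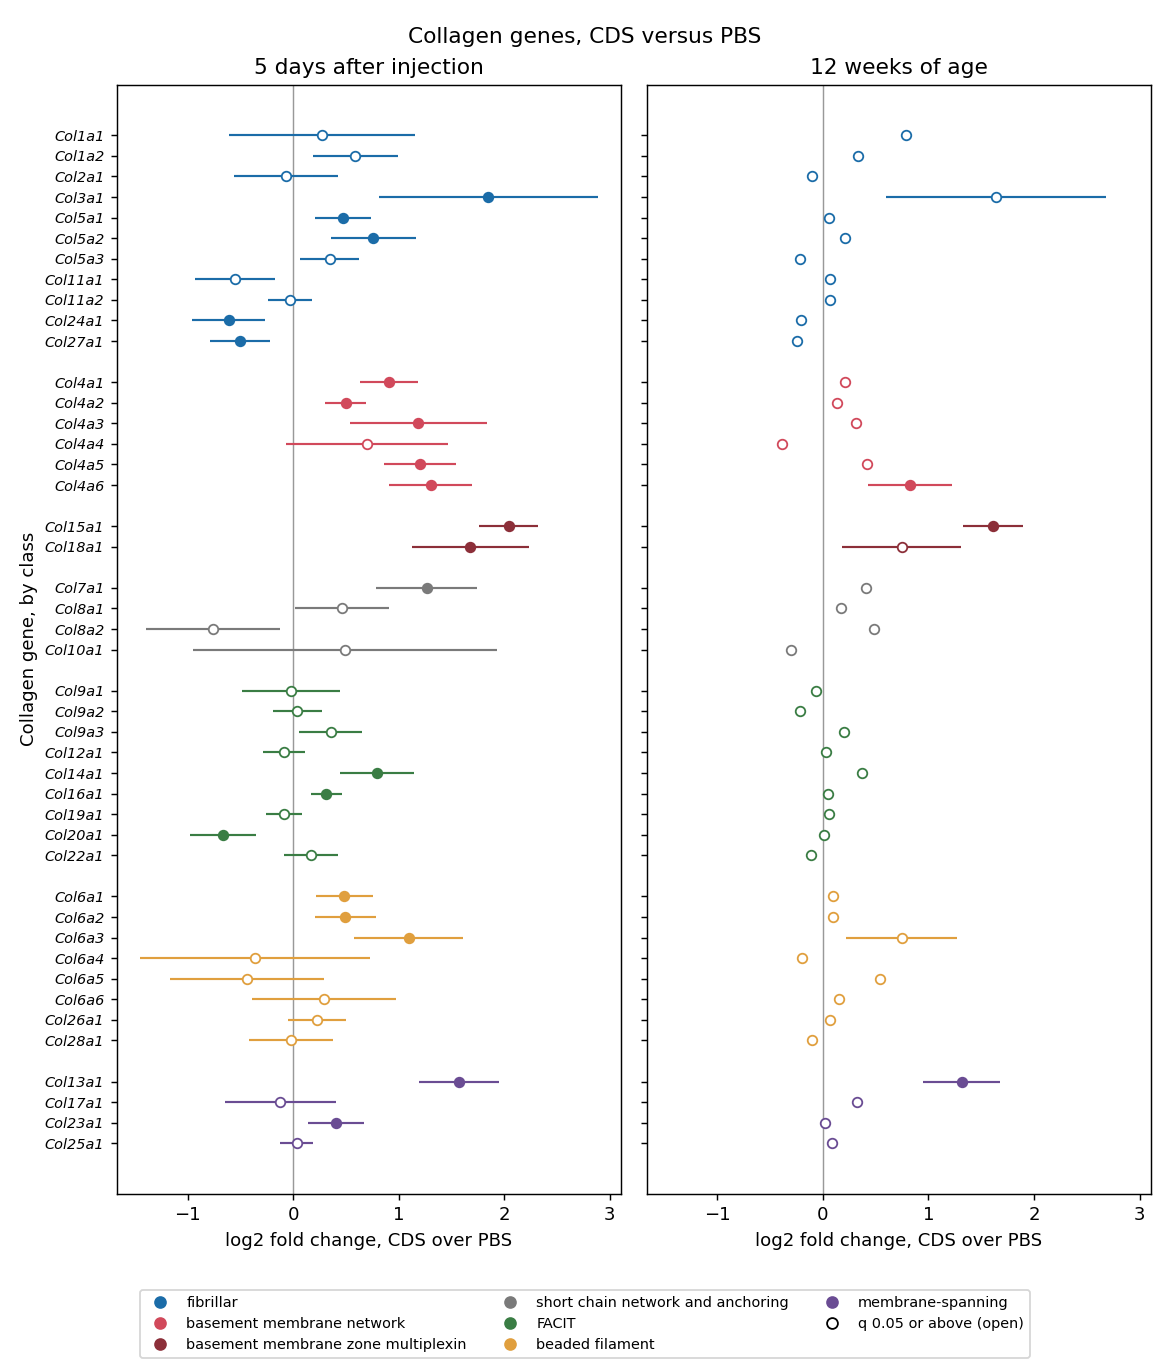
Log2 fold change of CDS over PBS (horizontal axis) of the 44 collagen genes (vertical axis), by class, 5 days after injection and at the age of 12 weeks. Filled points have a q under 0.05 and bars are 95% intervals from implied standard errors, which at 12 weeks could be recovered for 6 members; 18 members were higher and 3 lower at 5 days, and 3 were higher at 12 weeks.

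The type IV collagens of basement membranes were higher in CDS at 5 days. All 6 type IV chains lay above 0 and 5 of them rose, with a median log2 change of 1.05 in the authors' deposited table. The class includes Col4a1 and Col4a2, which together form the type IV network of every basement membrane, Col4a3, Col4a4 and Col4a5, which form the network known from the kidney glomerulus, and Col4a6, which pairs with Col4a5. Their genes lie in head-to-head pairs. The first bases of Col4a1 and Col4a2 on chromosome 8 overlap by 22 bases in GENCODE M21, those of Col4a3 and Col4a4 on chromosome 1 lie 72 bases apart, and those of Col4a5 and Col4a6 on chromosome X lie 1309 bases apart. The windows around the starts of both pairs in which each partner was called are printed to show the sequence at these starts, from RefSeq on GRCm38.p6, each on its own gene's strand from 250 bases before to 50 bases after the start, with the GC box GGGCGG or its complement CCGCCC in capitals. They lie at chr8:11312777-11313076 (minus strand, Col4a1), chr8:11312555-11312854 (plus strand, Col4a2), chrX:141475169-141475468 (plus strand, Col4a5) and chrX:141474027-141474326 (minus strand, Col4a6).
Col4a1: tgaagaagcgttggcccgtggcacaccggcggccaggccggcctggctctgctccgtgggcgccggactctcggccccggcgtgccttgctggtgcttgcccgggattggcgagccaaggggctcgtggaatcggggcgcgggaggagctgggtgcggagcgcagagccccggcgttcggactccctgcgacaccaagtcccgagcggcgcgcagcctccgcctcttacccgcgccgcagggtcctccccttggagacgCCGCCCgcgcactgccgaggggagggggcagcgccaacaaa
Col4a2: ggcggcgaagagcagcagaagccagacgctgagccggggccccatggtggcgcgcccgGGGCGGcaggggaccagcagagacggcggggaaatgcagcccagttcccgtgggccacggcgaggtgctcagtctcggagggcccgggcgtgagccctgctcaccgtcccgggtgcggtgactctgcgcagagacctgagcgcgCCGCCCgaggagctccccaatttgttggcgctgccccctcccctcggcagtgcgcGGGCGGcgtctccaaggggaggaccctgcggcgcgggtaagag
Col4a5: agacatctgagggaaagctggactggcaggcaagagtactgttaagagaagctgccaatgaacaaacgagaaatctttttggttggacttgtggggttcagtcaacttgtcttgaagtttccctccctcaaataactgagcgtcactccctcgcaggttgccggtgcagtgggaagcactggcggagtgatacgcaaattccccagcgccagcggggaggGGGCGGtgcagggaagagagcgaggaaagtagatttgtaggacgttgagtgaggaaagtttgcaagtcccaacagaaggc
Col4a6: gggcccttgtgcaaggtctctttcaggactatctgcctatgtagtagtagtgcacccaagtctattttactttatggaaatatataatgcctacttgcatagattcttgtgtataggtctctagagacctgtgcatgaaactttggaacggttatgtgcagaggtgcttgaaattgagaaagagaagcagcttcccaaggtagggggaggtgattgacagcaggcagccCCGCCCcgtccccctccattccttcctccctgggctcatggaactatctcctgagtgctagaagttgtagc

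The windows of Col4a1 and Col4a2 share 78 bases, read on opposite strands. A GC box, searched on both strands, was present 3 times in the Col4a2 window and 1 time in each of the others. The GC box of the Col4a1 window lies in the shared bases and is the same site as the last of the 3 in the Col4a2 window. Over all 32851 RefSeq windows of that length 35.7% held it, as did 60.5% of the 38 windows found for 35 of the members. The TATA box TATAAA was in none of these 4 windows and in 13.6% of all windows. A match of letters is a description and shows no binding. No window was found for Col4a3.

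Partners within a head-to-head pair had fold changes of the same direction at 5 days. Col4a1 rose by 0.91 (implied SE 0.14), or 1.88-fold (q = 2.02e-08, the authors' deposited table). Col4a2 rose less, by 0.50 (implied SE 0.10), or 1.41-fold (q = 0.000107, the authors' deposited table). The 95% intervals of this pair, 0.64 to 1.18 and 0.30 to 0.69, overlapped at their edges, and a test between the chains could not be made because the tables hold no values per sample. On the X chromosome Col4a5 rose by 1.203 (SE 0.17) and Col4a6 by 1.30 (SE 0.20) in the authors' deposited table, with q of 2.46e-09 and 1.8e-08. These 2 chains, whose starts are the farthest apart of the 3 pairs, rose by nearly the same amount. In the remaining pair Col4a3 rose by 1.19 (SE 0.33, q = 0.0112), while Col4a4 stood at 0.70 (SE 0.39, q = 0.32) in the authors' deposited table. The interval of Col4a4, -0.07 to 1.47, holds the value of its partner.

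The multiplexins Col15a1 and Col18a1 are collagens with many interruptions that carry glycosaminoglycan chains and sit at the outer face of basement membranes. Their C-terminal fragments, restin and endostatin, are known as inhibitors of vessel growth. Col15a1 had the largest rise of the family, 2.04 (implied SE 0.14), or 4.11-fold (q = 2.55e-43, rank 9 of all genes by q, the authors' deposited table). Col18a1 rose by 1.68 (implied SE 0.28), or 3.20-fold (q = 6.36e-07, the authors' deposited table). The class thus had both members called.

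Membrane-spanning collagens were divided. Col13a1, a transmembrane collagen found at cell adhesion sites and at the neuromuscular junction, rose by 1.57 (implied SE 0.19), or 2.97-fold (q = 1.46e-13, the authors' deposited table). Col23a1 rose by 0.41 (SE 0.13), with a q of 0.0442 that lies just inside the threshold in the authors' deposited table. Col25a1, a neuronal collagen also found in amyloid plaques, stood at 0.03 with an interval from -0.12 to 0.19 around the authors' deposited table value. Col17a1, a hemidesmosome component of skin, stood at -0.12 with an interval from -0.65 to 0.40 (the authors' deposited table). The start windows of both genes called at 12 weeks outside type IV are printed for comparison with the paired genes, at chr10:61979059-61979358 (minus strand, Col13a1) and chr4:47207762-47208061 (plus strand, Col15a1), with the TATA box TATAAA in capitals.
Col13a1: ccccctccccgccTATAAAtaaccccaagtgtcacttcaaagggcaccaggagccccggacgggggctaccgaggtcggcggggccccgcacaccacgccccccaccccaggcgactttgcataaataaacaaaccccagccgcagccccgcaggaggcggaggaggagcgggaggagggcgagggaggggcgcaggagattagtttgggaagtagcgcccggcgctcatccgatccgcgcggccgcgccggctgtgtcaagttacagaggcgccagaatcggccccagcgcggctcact
Col15a1: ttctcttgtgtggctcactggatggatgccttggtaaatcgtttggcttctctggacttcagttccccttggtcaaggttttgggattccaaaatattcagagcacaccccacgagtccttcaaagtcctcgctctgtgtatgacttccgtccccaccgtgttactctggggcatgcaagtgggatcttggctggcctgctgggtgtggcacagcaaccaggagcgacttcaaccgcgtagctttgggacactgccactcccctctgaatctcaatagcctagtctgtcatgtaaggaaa

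Neither of the last 2 windows held a GC box, and the Col15a1 window held no TATA box. The start that RefSeq gives for Col15a1 lies 149 bases before that of GENCODE M21. The Col15a1 window ends short of the GENCODE M21 start, so its motif search and base share do not cover that start. The share of bases that are G or C was 52.3% in the Col15a1 window and 68.0% in that of Col13a1, against 74.0% in that of Col4a1 and 48.3% in that of Col4a6.

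Fibrillar collagens moved in both directions at 5 days, with 3 of 11 higher and 2 lower. Col3a1, the reticular fibre collagen of vessels and meninges, rose by 1.85 or 3.60-fold, but with 0.53 as its implied SE (q = 0.0142, the authors' deposited table). Its interval ran from 0.81 to 2.89, and its 3' neighbour Col5a2 lies 24.6 kb away on chromosome 1, tail to tail. The type V chains Col5a1 and Col5a2, which start fibre assembly, rose by 0.48 (SE 0.14) and 0.76 (SE 0.21) in the authors' deposited table, with q of 0.0133 and 0.00794. Neither chain of type I collagen, the main fibre protein of scars, was called. Col1a2 stood at 0.59 (SE 0.20, q = 0.0602) just outside the threshold, and Col1a1 at 0.27 (SE 0.45, q = 0.807), in the authors' deposited table. The interval of Col1a1 ran from -0.61 to 1.15, so that a 2-fold rise was within its error. The longest Gly-X-Y runs of Col24a1 and Col27a1, 216 and 217 triplets, were shorter than those of the other fibrillar members. All their runs together held 981 and 987 residues, against 1059 to 1092 in the other fibrillar members. Col24a1 and Col27a1 fell by 0.61 (SE 0.18) and 0.50 (SE 0.14) in the authors' deposited table, with q of 0.0166 and 0.0142. They were the 2 fibrillar members called lower, and a link between run length and fold change was not tested. Col11a1, a cartilage and eye fibre collagen, stood at -0.55 with a q of 0.0629 in the authors' deposited table.

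Of 9 FACIT members 2 rose and 1 fell. Col14a1 rose by 0.79 (SE 0.18, q = 0.000823) in the authors' deposited table. Col16a1 rose by 0.31, a small change known with an implied SE of 0.08, the smallest of the family (q = 0.00182, the authors' deposited table). Col20a1 fell by 0.67 or 1.59-fold (SE 0.16, q = 0.00173, the authors' deposited table), the lowest value of its class. The type IX chains, which coat cartilage fibres, lay at -0.02 for Col9a1, 0.04 for Col9a2 and 0.35 for Col9a3 in the authors' deposited table, none called. Col12a1 and Col19a1, the latter known from interneurons, stood at -0.09 each in the authors' deposited table, with intervals from -0.29 to 0.11 and from -0.26 to 0.09. Col19a1 and Col9a1 are tail-to-tail neighbours on chromosome 1, 9.21 kb apart. Among beaded filament collagens the 3 common chains of type VI rose together. Col6a1 rose by 0.48 (SE 0.14), Col6a2 by 0.49 (SE 0.15) and Col6a3 by 1.10 (SE 0.26) in the authors' deposited table, with q of 0.0149, 0.0207 and 0.00181. Col6a1 and Col6a2 lie in tandem on chromosome 10, 85.2 kb apart, and Col6a3 lies on chromosome 1. The other type VI chains, Col6a4, Col6a5 and Col6a6, which can take the place of Col6a3 in the trimer, ranged from -0.44 to 0.29 with implied SEs of 0.35 to 0.56 and were not called (the authors' deposited table).

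The anchoring fibril collagen Col7a1, best known from the junction of skin layers, rose by 1.26 or 2.40-fold (SE 0.24, q = 2.77e-05, the authors' deposited table). The network collagens of type VIII, known from vessel walls and the cornea, lay on opposite sides of 0. Col8a1 stood at 0.46 (SE 0.23) and Col8a2 at -0.76 (SE 0.32), the lowest value of the family, neither called in the authors' deposited table (q = 0.238 and 0.157). Col10a1, a cartilage collagen, had the widest error of the family (SE 0.73) at 0.49 in the authors' deposited table. Precision differed widely between members, with a median implied SE of 0.19. Of the 23 members not called, 17 had an interval that lay within a 2-fold change in either direction. Unadjusted p-values under 0.05 belonged to 6 of the 23.

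**Figure D2:**
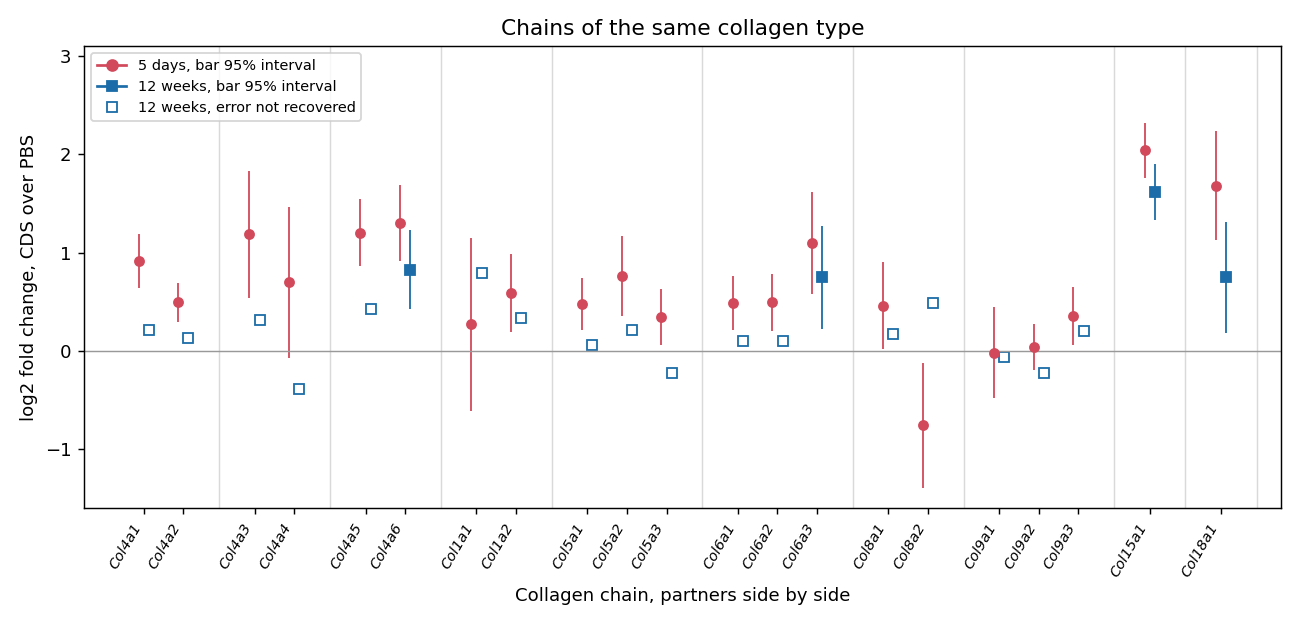
Log2 fold change of CDS over PBS (vertical axis) for chains of the same collagen type (horizontal axis), at 5 days (circles) and 12 weeks (squares), with 95% intervals where an error could be recovered. Both chains of the pairs Col4a1 and Col4a2, and Col4a5 and Col4a6, lay above 0 at both times, while of the pair Col4a3 and Col4a4 the latter lay at -0.39 at 12 weeks, and Col15a1 had a value above 1 at both times.

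At 12 weeks of age, 3 collagen genes were higher in CDS and none was lower. They were Col15a1, Col13a1 and Col4a6, and all 3 had also risen at 5 days. Of all genes 0.0933% were called higher in the authors' deposited table and 0.0982% lower at this time, 0.191% in either direction (0.252% of protein-coding genes), and 6.82% of the members were called. Of the 19 genes called higher in the whole table, 3 were collagens. The median log2 fold change of the 44 members was 0.10 in the authors' deposited table, with 33 members above 0, beside a median of -0.00 and 49.0% above 0 over all genes. For 38 members the q equalled the highest value of the table, 0.999997, which 20103 genes share, and only a lower bound of 0.0134 on their p is known. An unadjusted p under 0.05 could be recovered for 6 members, all of them above 0.

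Col15a1 rose by 1.61 with an implied SE of 0.15, or 3.05-fold, and had the lowest q of the whole table at 12 weeks (q = 1.65e-24, the authors' deposited table). Col13a1 rose by 1.31 (SE 0.19), or 2.49-fold, with q = 6.2e-09 in the authors' deposited table. Col4a6 rose by 0.83 (SE 0.20), or 1.78-fold, with q = 0.0267 in the authors' deposited table, a call lost where q had to be under 0.01. Its head-to-head partner Col4a5 stood at 0.42 and was not called (the authors' deposited table). The remaining 3 members with a recovered p were Col3a1, Col6a3 and Col18a1. Col3a1 stood at 1.64 (SE 0.53, q = 0.437), the highest fold change of the family at this time in the authors' deposited table. Its implied error was larger than that of Col15a1, and its interval ran from 0.60 to 2.69. Col6a3 stood at 0.75 (SE 0.27, q = 0.684) and Col18a1 at 0.75 (SE 0.29, q = 0.89) in the authors' deposited table.

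The other type IV chains lay at 0.21 for Col4a1, 0.13 for Col4a2, 0.31 for Col4a3 and -0.39 for Col4a4 in the authors' deposited table at 12 weeks, none called. Col4a4 was the lowest value of the family. Among the remaining fibrillar chains Col1a1 stood at 0.79, above its value at 5 days, Col1a2 at 0.34 and Col27a1, the lowest of the class, at -0.24 in the authors' deposited table. FACIT members ranged from -0.22 for Col9a2 to 0.37 for Col14a1, and beaded filament members from -0.20 for Col6a4 up to Col6a3 (the authors' deposited table). Col7a1 stood at 0.41, Col8a2 at 0.49 and Col10a1 at -0.30, while Col23a1 was the lowest membrane-spanning member at 0.02, in the authors' deposited table.

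The tables of both times rest on different samples. All 18 members that rose at 5 days lay above 0 at 12 weeks, and all 18 lay closer to 0 than at 5 days. They were selected for a high value at 5 days, so that a smaller value in other samples would also come from that selection. A log2 fold change of at least 1.5-fold at 12 weeks was found for 6 of the 18. Of the 3 that fell at 5 days, Col24a1 (-0.21) and Col27a1 lay below 0 and Col20a1 at 0.01 at 12 weeks in the authors' deposited table. No member was called at 12 weeks that had not been called at 5 days.

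The difference between the times was tested as a z of both fold changes over their implied errors, two-sided, with Benjamini-Hochberg adjustment over the 272 genes that have an error at both times, of which 47 (17.3%) were called. A gene has an error at 12 weeks only where its p there was under 0.0134, so these genes entered through a strong difference at 12 weeks, and a decline is harder to find among them. None of the 6 collagen genes among them was called, and 2 had an unadjusted p under 0.05. Col18a1 was lower at 12 weeks by 0.93 (difference -0.93, SE 0.40, unadjusted p = 0.0207, adjusted p = 0.083). Col15a1 differed by -0.43 (SE 0.20, unadjusted p = 0.0343, adjusted p = 0.122), and Col13a1 by -0.26 (SE 0.27, adjusted p = 0.514). A p that misses the threshold does not show that the fold changes were equal. With a substituted error for the tied genes, 0.432% of all genes and none of the 44 members were called. The smallest adjusted p was then 0.0768, for Col4a1 (difference -0.70, SE 0.20), and 15 members had an unadjusted p under 0.05.

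**Figure D3:**
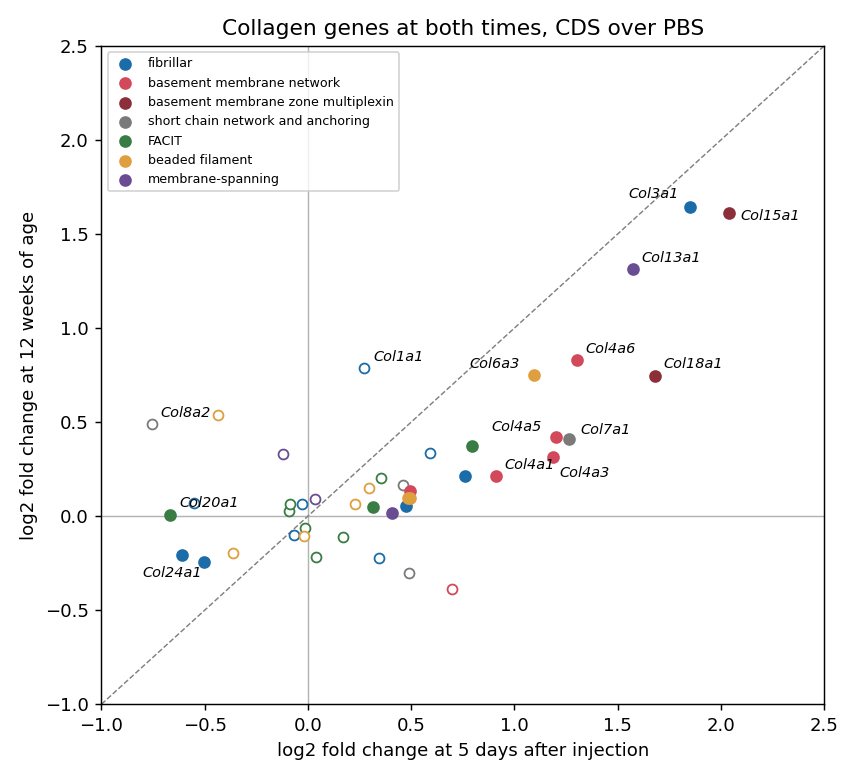
Log2 fold change of CDS over PBS of the 44 collagen genes at 5 days after injection (horizontal axis) against 12 weeks of age (vertical axis), coloured by class, with filled points for genes called at 5 days and a dashed line of equal values. The 18 members that rose at 5 days lie above 0 and under the dashed line at 12 weeks, with Col15a1, Col3a1 and Col13a1 farthest to the upper right.

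Genes that make, process, bind and break down collagen were called in 5 of 6 lists at 5 days. Of 58 measured genes in 6 lists, 9 rose and 2 fell at 5 days and none was called at 12 weeks, with a median log2 change of 0.12 and 0.05 in the authors' deposited table. The 11 called genes are 19% of the 58, beside 5.92% of all genes and 7.09% of protein-coding genes at 5 days. Unadjusted p-values under 0.05 belonged to 19 of the 58 (32.8%) at 5 days, beside 19.1% of all genes. At 12 weeks a p could be recovered only under 0.0134, which held for 3 of the 58 and for 272 of all 20375 genes. None of the 14 genes of prolyl and lysyl hydroxylation and sugar addition was called, 3 had an unadjusted p under 0.05 at 5 days, and their values ran from -0.36 to 0.31 in the authors' deposited table. The list includes the prolyl hydroxylase subunits P4ha1 and P4hb and the lysyl hydroxylase Plod2, at -0.24, 0.12 and 0.24 (the authors' deposited table). Of 9 chaperone and export genes Fkbp10, a prolyl isomerase of the endoplasmic reticulum, rose by 0.60 (SE 0.14, q = 0.00146, the authors' deposited table). Serpinh1, the collagen chaperone HSP47, stood at 0.45 (q = 0.135) in the authors' deposited table.

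Among 8 measured genes of propeptide processing, the procollagen N-proteinase Adamts14 rose by 0.99 (SE 0.29) and the enhancer of C-proteinase Pcolce by 0.57 (SE 0.19), and the C-proteinase relative Tll1 fell by 0.81 (SE 0.23), in the authors' deposited table. Loxl2, a lysyl oxidase that cross-links type IV collagen, had the largest rise of the lists, 1.61 or 3.05-fold (SE 0.30, q = 8.96e-06, the authors' deposited table). It was the 1 gene called of 7 for cross-linking, with Lox at 0.83 and Loxl1 at 0.57 (q = 0.153 and 0.106, the authors' deposited table). Of 11 measured receptors the integrin subunit Itga1 and the receptor tyrosine kinase Ddr1 rose by 0.40 (SE 0.10) and 0.26 (SE 0.07), and the inhibitory leukocyte receptor Lair1 fell by 1.06 (SE 0.12, q = 6.56e-17), in the authors' deposited table. Lair1 is carried by immune cells, and the 6 microglia markers also fell, but a link between these falls was not tested. Of 9 genes of collagen breakdown, Mmp9, Mmp14 and the cathepsin Ctsk rose by 1.29 (SE 0.23), 0.63 (SE 0.16) and 0.68 (SE 0.21) in the authors' deposited table. At 12 weeks, when none was called, the 9 genes that had risen ranged from -0.34 for Adamts14 to 0.60 for Loxl2, with Mmp14 also below 0 at -0.05 (the authors' deposited table).

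Markers of the cell types that are known to make collagen were called in some lists and not in others. Of 13 fibroblast and meninges markers, 4 rose and 1 fell at 5 days, with a median log2 change of 0.29, and 2 rose at 12 weeks, with a median of 0.43 and all 13 above 0, in the authors' deposited table. Of all genes 5.92% were called at 5 days and 0.191% at 12 weeks. Unadjusted p-values under 0.05 belonged to 7 of the 13 at 5 days, Ogn and Fmod among them below 0, beside 19.1% of all genes. At 12 weeks a p could be recovered for 7 of the 13, beside 272 of 20375 genes. The proteoglycan gene Lum rose by 1.58 (SE 0.24) and the transcription factor Tbx18 by 0.82 (SE 0.13) at 5 days, and by 1.33 (SE 0.25) and 0.74 (SE 0.14) at 12 weeks, in the authors' deposited table. Dcn and Igf2 rose at 5 days by 0.84 and 0.61, and Fmod fell by 0.74 (the authors' deposited table). None of 10 endothelial markers was called at either time (1 with an unadjusted p under 0.05 at 5 days), with medians of -0.03 and 0.06 and values between -0.24 and 0.19 at 5 days in the authors' deposited table. Of 9 mural cell markers, Pdgfrb and Abcc9 rose at 5 days, when 3 of the 9 had an unadjusted p under 0.05. None of the 9 was called at 12 weeks (none with a recovered unadjusted p under 0.05), and the medians were 0.21 and 0.12 in the authors' deposited table. Oligodendrocyte precursor markers fell in 7 of 7 cases at both times, with medians of -2.78 and -0.92 (the authors' deposited table). Among 6 astrocyte markers Gfap alone was called, at 1.497 at 5 days in the authors' deposited table, and 3 of the 6 had an unadjusted p under 0.05 at that time.

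Tissue at the border of the region was also read from markers, since the meninges and choroid plexus hold collagen. Of 7 measured choroid plexus markers none was called at either time, with medians of 0.11 and 0.26 and, at 12 weeks, all 7 above 0 up to 1.03 in the authors' deposited table. Striatal neuron markers gave medians of 0.31 and 0.40 with 0 of 7 called at either time, and 10 cortical neuron markers gave 0.04 and 0.00 with 1 called, Gad1 at -0.35 at 5 days (the authors' deposited table). At 5 days, 1 striatal, 3 cortical and no choroid plexus markers had an unadjusted p under 0.05. At 12 weeks no p could be recovered for any gene of these lists, and only the lower bound of 0.0134 is known. The part of the meningeal, mural and other cell type markers in the collagen values was not tested. The tables hold no levels, so the tissue label itself could not be checked by expression.

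**Figure D4:**
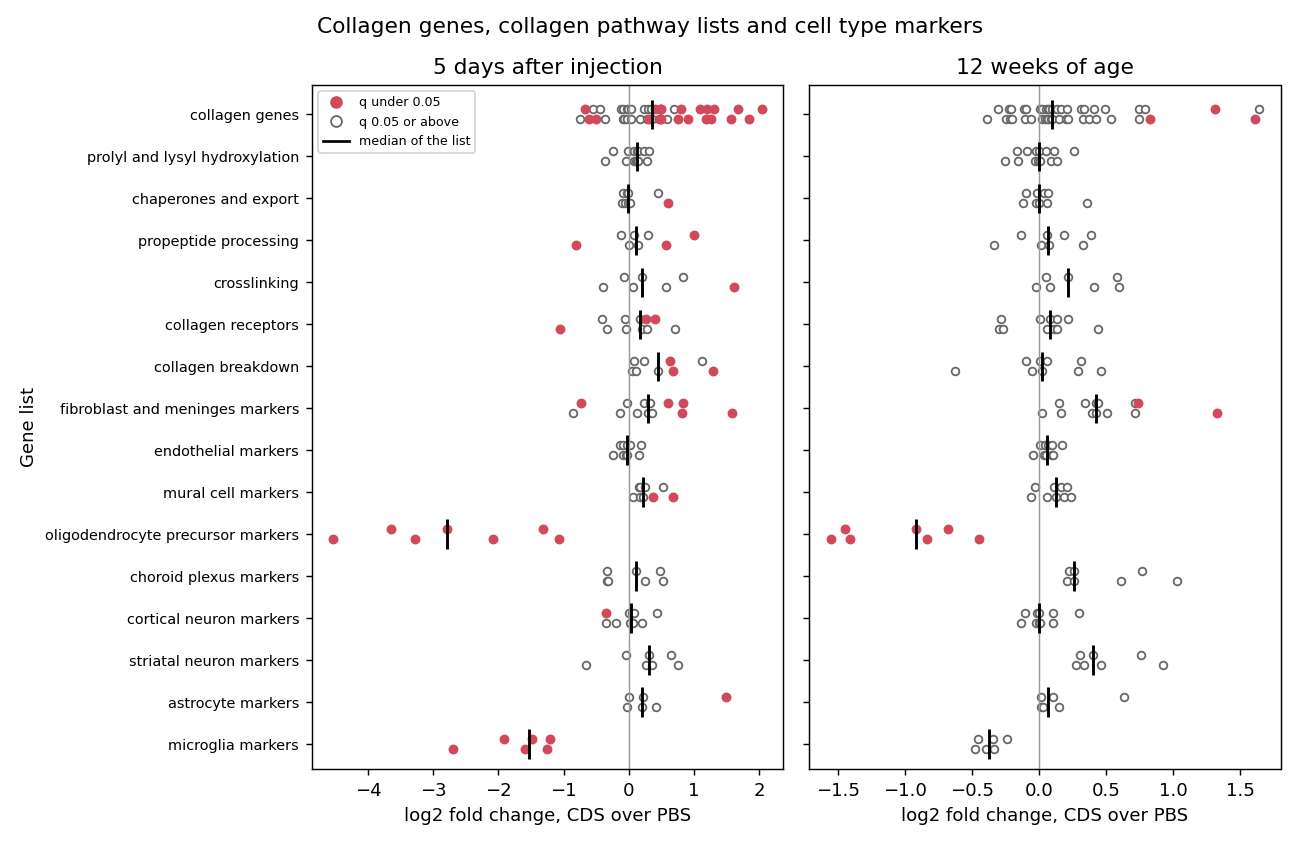
Log2 fold change of CDS over PBS (horizontal axis) of each gene in the collagen family, the 6 collagen pathway lists and the 9 cell type marker lists (vertical axis), at 5 days and 12 weeks; the axes of the panels differ in range. Red points have a q under 0.05 and black bars are list medians, such as 0.35 for collagen genes and 0.12 for hydroxylation genes at 5 days.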

How the data were processed

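RNA of the medial prefrontal cortex was sequenced from 20 samples in 4 groups of 5, from stranded libraries after ribosomal RNA depletion, per the labels' protocols. STAR, featureCounts and DESeq2 on GRCm38.p5 are named in the submitters' processing notes; versions, filters, the model and any shrinkage were not given in the sources used here. Per the file headers, 1 table per time was deposited, holding for 20375 genes the log2 fold change (CDS over PBS) and the q-value. Both were used as they stand. Depth is unknown. Whether samples came from separate animals is not stated, so q-values measure the spread between these samples.

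The q-values were taken as Benjamini-Hochberg values over all genes. The p followed as q times rank over 20375, and the implied standard error as the log2 fold change over the normal z. Ties bounded p within 1.04-fold at 5 days and 1.14-fold at 12 weeks, where 272 genes had a p. The recovery was run on data simulated under these same assumptions, so whether the deposited q-values meet them was not tested. Of the gene IDs, 20306 were in GENCODE M21 (GRCm38), used for class and position; blank symbols (4083) held no further collagen gene. Promoter windows came from RefSeq (GRCm38.p6). Classes and pathway and marker lists were fixed by hand, and members and lists were chosen with earlier results of these data known. Genes named were all called collagen and pathway genes, the extremes of each class, neighbouring pairs and called fibroblast markers; other names were added after their values were seen. Medians of lists are given without an error. Python 3.11.15, pandas 2.3.3, scipy 1.17.1 and Biopython 1.88 were used.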

Additional observations from a re-analysis of the deposited data

How the results depend on the processing

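The counts of called collagen genes were recomputed with q under 0.01, q under 0.1, a fold of at least 1.5, Bonferroni adjustment and adjustment over protein-coding genes alone. At 5 days the number higher was 18, but 12 with q under 0.01, 12 with a fold of at least 1.5 and 8 with Bonferroni adjustment. The number lower was 3, but 1 with q under 0.01 and 0 with Bonferroni adjustment, where fewer genes pass by construction. With q under 0.01 the calls of Col3a1, Col5a1, Col24a1, Col27a1, Col4a3, Col6a1, Col6a2 and Col23a1 were lost. Pathway genes higher at 5 days numbered 9, but 5 with q under 0.01 and 2 with Bonferroni adjustment; those lower numbered 2, but 1 under each of the same settings. At 12 weeks 3 collagen genes were higher, but 2, without Col4a6, with q under 0.01 or Bonferroni adjustment. A fold of at least 1.5 removed the calls of Col5a1, Col27a1, Col4a2, Col16a1, Col6a1, Col6a2 and Col23a1 at 5 days. The family's medians were 0.35 and 0.09 when centred on protein-coding genes. No member had an implied error above 0.9, so leaving such members out removed none. No paired analysis was possible because the tables hold comparisons and no sample columns, and for the same reason no replicate could be left out.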

Other observations

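Of 20375 genes, 16 were higher at both times, and 3 of these were the collagen genes Col15a1, Col13a1 and Col4a6. The other 13 were read after their values were seen and are given as values alone. Lama1 and Lamc3, chains of laminin, another basement membrane protein, rose by 1.09 and 0.87 at 5 days and by 0.69 and 0.50 at 12 weeks in the authors' deposited table. Postn, a matricellular protein that binds collagen, rose by 1.40 and 1.18, and Lum, a proteoglycan of collagen fibres, by 1.58 and 1.33 (the authors' deposited table). Tbx18, Enpp1, Ggt1, Edn3, Itih5, Abca8a and Kif5a rose as well, from 0.21 for Kif5a to 0.83 for Ggt1 at 5 days and from 0.27 for Kif5a to 0.96 for Edn3 at 12 weeks in the authors' deposited table. Cybb, a subunit of the phagocyte oxidase, rose by 1.27 and 1.47 and the class II gene H2-Ab1 by 1.19 and 0.93 (the authors' deposited table).

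Symbols that begin with Col but fall outside the family numbered 7, and none was called at either time. The collectin Colec12, a scavenger receptor with a collagen-like stalk, stood at 0.33 (SE 0.14) at 5 days and at 0.52 (q = 0.124) at 12 weeks in the authors' deposited table. Colq, the collagen-like tail of acetylcholinesterase, stood at -0.34 and 0.32 (the authors' deposited table). Unadjusted p-values under 0.05 belonged to 1 of the 7 at 5 days, which was Colec12. Its p, as recovered from the authors' q, was 0.0206 at 5 days and 0.000285 at 12 weeks.

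Implied SEs at 5 days and 12 weeks were 0.142 and 0.145 for Col15a1, and 0.529 and 0.532 for Col3a1.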
